A study of Homo sapiens with 6 samples.

Results

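The set comprised 9 genes of the epithelial programme, all found by symbol among the 56832 symbols of the deposited count table: the splicing regulators ESRP1 and ESRP2, the protease inhibitors SPINT1 and SPINT2 with the protease ST14, and the transcription factors GRHL1, GRHL2, OVOL1 and OVOL2. ESRP2 and SPINT2 were chosen for their loss in the SMARCA3 knockout, so their change is described here without a test, while the other genes were added as their relatives and partners. Poly(A)-selected RNA was sequenced from SMARCA3 KO HEK293T cells (3 libraries) and wild-type HEK293T cells (3 libraries). SMARCA3 is the SNF2-family helicase and RING ubiquitin ligase encoded by HLTF, and HEK293T is a transformed line of embryonic human kidney origin, made with adenovirus DNA and the large T antigen of SV40. Both groups grew in the same serum-containing medium. The labels name no other allele or agent, and they give neither the editing method, nor the number of knockout clones, nor whether replicates were separate cultures. P-values therefore measure only the spread between these libraries, which may be technical.

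ESRP proteins bind RNA and direct the exon choices typical of epithelia, such as the epithelial form of the growth factor receptor FGFR2. SPINT1 and SPINT2 are membrane-anchored Kunitz-domain inhibitors of matriptase, the serine protease encoded by ST14, which processes surface proteins of epithelial sheets. GRHL1 and GRHL2 are grainyhead-like activators of junction genes, and OVOL1 and OVOL2 are zinc finger repressors that restrain mesenchymal regulators such as ZEB1.

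Total counts were 33125811 to 36804337 in SMARCA3 KO libraries and 38199454 to 41593655 in wild-type libraries, so each knockout library was shallower. HLTF measured 140.8, 139.9 and 149.4 counts per 1000000 counts of tested genes (CPM) in the knockout, against 215.3, 191 and 194.8 CPM in wild-type, a log2 difference of -0.48 with an SE of 0.05 (edgeR adjusted p = 4.65e-05). HLTF mRNA was thus lower but present in the knockout, and counts per gene do not show whether its protein was altered. The labelled epithelial-like character was only partly borne out by its defining markers. KRT18 and KRT8 were measured at 13.8 and 3.54 CPM in the knockout and 30.7 and 6.66 CPM in wild-type, CDH1 at 3.61 CPM in the knockout and 5.35 CPM in wild-type and EPCAM at 0.302 CPM in the knockout and 0.915 CPM in wild-type, whereas KRT7 had 1 count in each group and KRT19 none. Of the markers of other cell types, those of blood summed to 2.82 to 3.34 CPM in the knockout and 2.36 to 3.46 CPM in wild-type, with CD3E and HBB at 0, and those of fibroblasts to 6.27 to 7.05 CPM in the knockout and 6.51 to 8.42 CPM in wild-type, with DCN at 0.

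Only 3 of the 9 genes, ESRP2, SPINT2 and GRHL1, passed the filter on low counts. Of these, GRHL1 alone was not picked for its change, and it was called lower by edgeR. A call means an adjusted p under 0.05, and 31.8% of all 18061 tested genes were called, 17.7% lower and 14.0% higher. In wild-type cells the levels of ESRP2, SPINT2 and GRHL1 per length were 2.13, 2.48 and 1.29 CPM per kilobase of exon. The other 6 genes lay between 0.00559 CPM per kilobase for GRHL2 and 0.0578 for OVOL2 in wild-type, and between 0.0016 for GRHL2 and 0.0393 for OVOL2 in the knockout. None of them exceeded 7 counts in any library. Of the 9 genes, wild-type HEK293T cells thus expressed 1 ESRP, 1 SPINT and 1 GRHL gene, and neither OVOL gene nor ST14 above traces. In the knockout ESRP2 and SPINT2 were at 0.0989 and 0.160 CPM per kilobase. GRHL3, a relative outside the set, measured 0.434 to 0.642 CPM in wild-type.

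**Figure D1:**
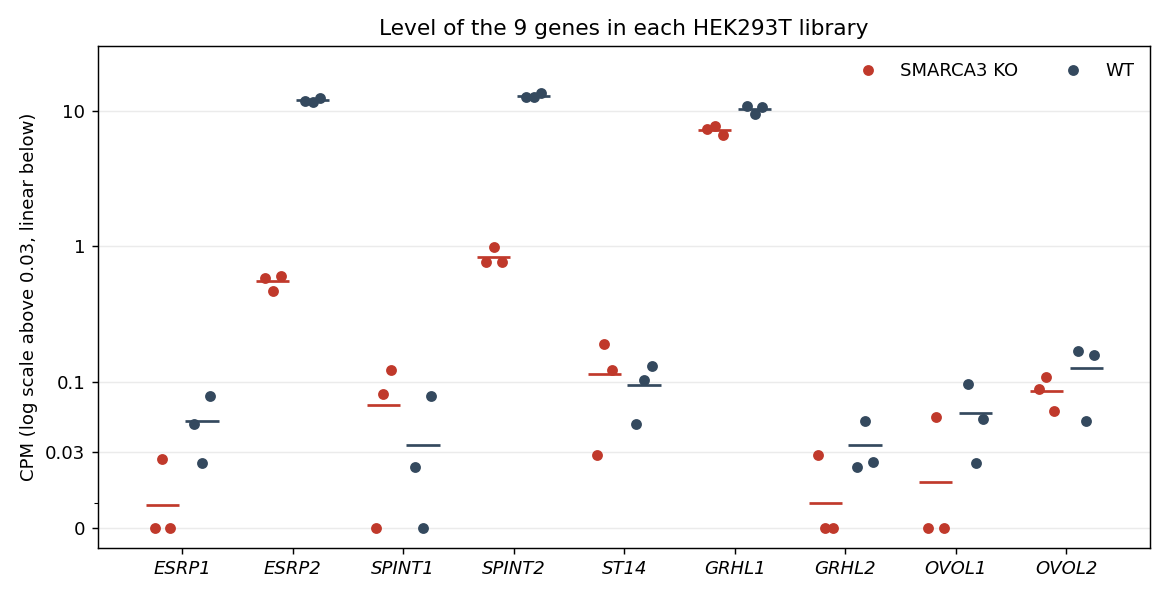
CPM of the 9 genes (vertical axis, log scale above 0.03 and linear below) in each of the 3 SMARCA3 KO libraries (red) and 3 wild-type libraries (dark), with a line at each mean. ESRP2 and SPINT2 lay at 0.462 to 0.978 CPM in the knockout and 11.5 to 13.5 CPM in wild-type, GRHL1 was separated by a smaller gap, and the other 6 genes stayed under 0.2 CPM in every library.

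ESRP2 (chr16:68229111-68238102, minus strand, hg38, GENCODE annotation) was read 20, 17 and 20 times in SMARCA3 KO libraries, against 485, 449 and 473 times in wild-type libraries. These counts correspond to 0.582, 0.462 and 0.606 CPM in the knockout and 11.7, 11.5 and 12.4 CPM in wild-type. All knockout libraries were far below all wild-type libraries, and the spread within each group was small. The means were 0.550 ± 0.0774 CPM in the knockout and 11.9 ± 0.469 CPM in wild-type (SD, n = 3 each), which leaves 4.63% of the wild-type level, a log2 fold change of -4.43 (SE 0.13). When the 11180 tested genes that reached 5 CPM in either group mean were ordered by log2 fold change, ESRP2 was the 8th from the most lowered. ESRP2 was picked for its loss and reached 5 CPM in wild-type only, so this rank follows from the choice and is a description. In bulk libraries fewer expressing cells and less RNA per cell cannot be told apart.

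The exons of ESRP2 overlap those of NFATC3 on the other strand by 149 bases, and the strand setting of the counting is not given in the sources used here. NFATC3 was read 1556, 1698 and 1477 times in the knockout and 2032, 1796 and 1750 times in wild-type, a log2 fold change of -0.05 that did not pass the test. The exons also overlap by 35 bases those of AC020978.5 and by 74 bases the microRNA gene MIR6773, both on the same strand, and MIR6773 was read 0 times in all 6 libraries.

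ESRP1, the paralog on chromosome 8 between 94641074 and 94707466, gave 0, 1 and 0 counts in the knockout and 2, 1 and 3 counts in wild-type. Summed over the group this was 1 count in the knockout and 6 in wild-type, a ratio of 0.190 with an exact 95% counting interval of 0.00413 to 1.56. The interval spans 1, so no difference was detectable at this depth. ESRP2 made up 97.9 ± 3.63% of the ESRP level per length in the knockout and 99.5 ± 0.233% in wild-type (SD, n = 3 each). The upper bound of ESRP1 in the knockout was 0.0535 CPM, below the 0.462 CPM of ESRP2 in the lowest knockout library.

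SPINT2, on chromosome 19 between 38244035 and 38292614 on the plus strand, was read 26, 36 and 25 times in the knockout and 522, 489 and 515 times in wild-type. The levels were 0.757, 0.978 and 0.757 CPM in SMARCA3 KO libraries and 12.6, 12.5 and 13.5 CPM in wild-type libraries. The groups were again fully separated. The means were 0.831 ± 0.127 CPM in the knockout and 12.9 ± 0.544 CPM in wild-type (SD, n = 3 each), which leaves 6.45% of the wild-type level, a log2 fold change of -3.94 (SE 0.12). In the same ranking of 11180 genes SPINT2 was the 13th from the most lowered, a place that likewise follows from its choice for its loss. Its exons overlap those of a protein-coding gene model on the same strand, AC011479.1, by 242 bases.

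The relative SPINT1, on chromosome 15 between 40844018 and 40858207, was read 0, 3 and 4 times in the knockout and 1, 0 and 3 times in wild-type. The sums of 7 and 4 counts gave a ratio of 1.99 with an exact 95% counting interval of 0.507 to 9.28, so neither a rise nor a fall could be shown. ST14, on chromosome 11 between 130159562 and 130210376, was read 1, 7 and 4 times in the knockout and 2, 4 and 5 times in wild-type. Its sums of 12 and 11 counts gave a ratio of 1.24 with an interval of 0.502 to 3.11.

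Protease and inhibitor transcripts were also set against each other. The level of ST14 per length relative to SPINT1 and SPINT2 together was 0.046, 0.207 and 0.155 in the knockout, against 0.00457, 0.00978 and 0.0115 in wild-type. The lowest knockout library lay above the highest wild-type library. This ratio contains a gene chosen for its loss and rests on 1 to 7 ST14 counts per library, so it is a description without a test. SPINT2 accounted for 90.03 ± 9.54% of the SPINT1 and SPINT2 level per length in the knockout and 99.6 ± 0.432% in wild-type (SD, n = 3 each).

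GRHL1, on chromosome 2 between 9951693 and 10002277 on the plus strand, was the only gene of the set that passed the filter and had not been chosen for its change. It was read 252, 282 and 218 times in the knockout and 447, 366 and 406 times in wild-type, or 7.34, 7.66 and 6.60 CPM in the knockout against 10.8, 9.39 and 10.6 CPM in wild-type. The highest knockout library lay below the lowest wild-type library. GRHL1 fell to 7.20 ± 0.541 CPM in the knockout, against 10.3 ± 0.764 CPM in wild-type (SD, n = 3 each), which is -0.51 on the log2 scale with an SE of 0.09 (edgeR, adjusted p = 0.00162 over all 18061 tested genes). A fall was not rare in this comparison, with 17.7% of tested genes called lower. In the ranking by log2 fold change GRHL1 stood 581st from the most lowered, far from ESRP2 and SPINT2.

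Promoter sequences were at hand for 2 of the 9 genes, GRHL1 and SPINT1, in the RefSeq table of build GRCh38.p14. Both promoters are dense in CpG, the dinucleotide at which silenced promoters are often methylated. Methylation was not measured here, and its part in the levels of these genes was not tested. ESRP1, ESRP2, SPINT2, ST14, GRHL2, OVOL1 and OVOL2 had no entry. The GRHL1 stretch is chr2:9951443-9951692 on the plus strand, the 250 bases before the start, and the SPINT1 stretch is chr15:40843798-40844017 on the plus strand, 220 bases that end where the GENCODE gene begins. Capitals mark CpG dinucleotides.
GRHL1: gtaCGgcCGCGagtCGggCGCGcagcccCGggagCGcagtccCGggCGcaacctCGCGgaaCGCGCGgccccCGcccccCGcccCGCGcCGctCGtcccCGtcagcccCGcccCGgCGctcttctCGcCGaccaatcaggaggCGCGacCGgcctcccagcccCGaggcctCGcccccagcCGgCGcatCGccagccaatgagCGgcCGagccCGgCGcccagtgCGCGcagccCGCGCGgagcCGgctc
SPINT1: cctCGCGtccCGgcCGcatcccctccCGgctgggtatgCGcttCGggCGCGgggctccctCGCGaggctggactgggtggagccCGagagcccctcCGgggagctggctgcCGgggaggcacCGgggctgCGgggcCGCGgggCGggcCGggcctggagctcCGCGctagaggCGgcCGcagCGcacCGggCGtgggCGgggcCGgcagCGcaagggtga
The GRHL1 stretch holds 45 CpG, more than 99.4% of 35116 promoter stretches of 250 bases, whose median is 11. The 220 bases of SPINT1 hold 30, and the 250 bases before its RefSeq start hold 35, more than 94.2% of promoters. Of the motifs searched on both strands in the 250 bases, the GC box GGGCGG matched 3 times in each gene, with no overlap to another motif since none of the others matched. It occurs in 42.6% of all promoters. The E-box CAGGTG bound by ZEB and SNAI repressors (17.5% of promoters), the grainyhead site AACCGGTT (0.117%), the Ovo core CCGTTA (2.45%) and the ETS core CCGGAAGT (3.42%) did not occur as these letters in either window.

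GRHL2, OVOL1 and OVOL2 were near the limit of detection. GRHL2, on chromosome 8 between 101492432 and 101669726, was read 1, 0 and 0 times in the knockout and 1, 2 and 1 times in wild-type, a ratio of 0.285 with an exact 95% counting interval of 0.00578 to 2.88. OVOL1, on chromosome 11 between 65787022 and 65797219, was read 0, 2 and 0 times in the knockout and 4, 1 and 2 times in wild-type, a ratio of 0.325 with an interval of 0.0330 to 1.71. OVOL2, on chromosome 20 between 17956979 and 18059188, was read 3, 4 and 2 times in the knockout and 7, 2 and 6 times in wild-type, a ratio of 0.683 with an interval of 0.264 to 1.67. Each interval spans 1 and covers counting error only. Exons of OVOL2 also overlap by 59 bases those of SNX5, a gene with 11491 to 14657 counts in each library, and those of OVOL1 overlap an antisense transcript by 1044 bases. When the filter on low counts was dropped, none of the 6 sparse genes was called (edgeR adjusted p between 0.401 for ESRP1 and 0.832 for ST14).

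None of the 40 expressed neighbours of ESRP2, nor of the 40 of SPINT2, had a log2 fold change of -1 or lower. The 40 nearest expressed genes around ESRP2, from 67237683 to 69754940 on chromosome 16, had a median log2 fold change of -0.06 and a lowest value of -0.65, with 12 called lower and 0 called higher by edgeR. These are 30% and 0% of the neighbours, beside 17.7% and 14.0% of all tested genes, so each called neighbour of ESRP2 was lower in the knockout. Around SPINT2, from 36817428 to 39476670 on chromosome 19, the 40 neighbours had a median of 0.07 and a lowest value of -0.86, with 2 (5%) called lower and 5 (12.5%) higher. PPP1R14A, an inhibitor of myosin phosphatase, was the closest positioned neighbour of SPINT2, and its midpoint lies inside the SPINT2 span. PPP1R14A measured 2.68 ± 0.249 CPM in the knockout and 4.15 ± 1.01 CPM in wild-type (SD, n = 3 each) and was called lower, with a log2 fold change of -0.63 (SE 0.18). Around GRHL1 the neighbour median was 0.00, with 7 (17.5%) called lower and 8 (20%) higher, and 2.5% of the 40 neighbours (which span 217730 to 18361616 on chromosome 2) had a value below that of GRHL1. The nearby TAF1B, a subunit of the RNA polymerase I initiation factor, had a log2 fold change of -0.42. By comparison the 40 neighbours of HLTF had a median of -0.50, close to the value of HLTF itself.

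**Figure D2:**
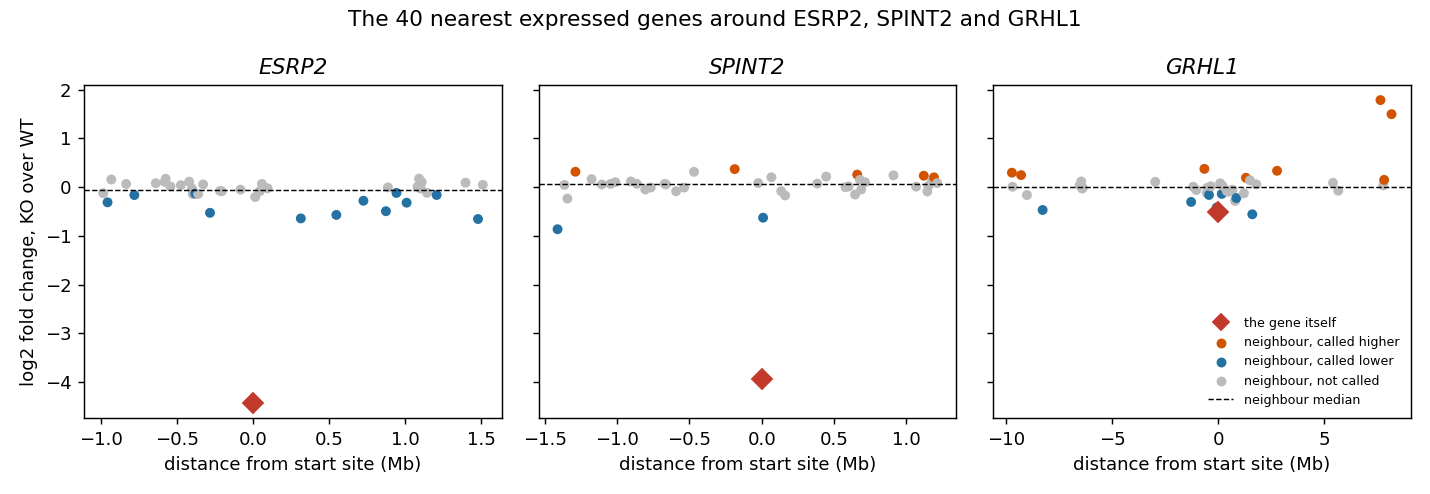
Log2 fold change, KO over WT, of the 40 nearest expressed genes (circles) against their distance along the chromosome from the start site of ESRP2, SPINT2 or GRHL1 (red diamonds), with a dashed line at the neighbour median. ESRP2 and SPINT2 lie at -4.43 and -3.94, while none of their neighbours is below -0.86.

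**Figure D3:**
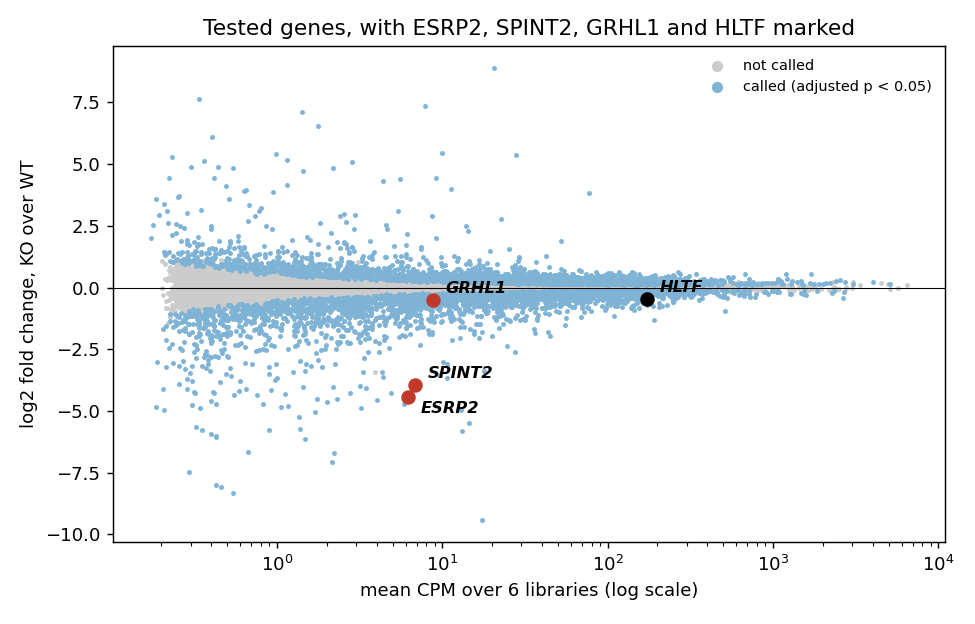
Log2 fold change, KO over WT, of the 18061 tested genes against mean CPM over the 6 libraries (log axis), with genes called at an adjusted p under 0.05 in blue. ESRP2 (-4.43) and SPINT2 (-3.94) lie below most genes of their level, and GRHL1 (-0.51) and HLTF (-0.48) lie within the main cloud.

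The genes with the most similar profile were sought among 14185 tested genes whose mean reached 1 CPM, by the Euclidean distance between centred log2 CPM profiles over the 6 libraries (pseudocount 0.05 CPM). Such a distance mainly follows the size of the group difference. For ESRP2 the nearest were RASL10B (distance 0.316), SPOCK3 (0.349) and TNFRSF10D (0.452), which had log2 fold changes of -4.27, -4.50 and -4.55. RASL10B, a small GTPase gene on chromosome 17, measured 0.466, 0.435 and 0.545 CPM in the knockout and 9.06, 9.85 and 9.02 CPM in wild-type. For SPINT2 the nearest were EPDR1 (0.360), the glutathione transferase gene MGST1 (0.468) and RP11-354P11.4 (0.502). EPDR1, on chromosome 7, measured 0.408, 0.435 and 0.303 CPM in the knockout and 6.99, 6.62 and 6.08 CPM in wild-type. SPINT2 ranked 11th among the genes nearest to ESRP2, and ESRP2 ranked 12th among those nearest to SPINT2. Both had been picked for their loss in these libraries, so their closeness follows from that choice and is a description only. The 5 of these 6 genes with an annotated position lie on chromosomes 4, 7, 8, 12 and 17, apart from ESRP2 and SPINT2 and from each other.

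Transcripts whose splicing ESRP proteins are known to control were measured at similar or slightly higher levels. Of 12 listed targets, 11 were tested, 4 rose and 0 fell, with a median log2 fold change of 0.08 beside 0.00 over all tested genes (0 of the 11 were lower also at an unadjusted p under 0.05, and with DESeq2 or limma-voom). These are 36.4% and 0% of those tested, beside 14.0% higher and 17.7% lower over all tested genes. ARHGEF11, a guanine nucleotide exchange factor, rose to 75.6 ± 0.723 CPM in the knockout, against 64.2 ± 3.34 CPM in wild-type (SD, n = 3 each, adjusted p = 0.00451). NF2, the tumour suppressor merlin, and EXOC7, an exocyst subunit, rose by 0.22 and 0.18 on the log2 scale. FGFR2, named here after its values were seen, measured 62.0, 64.9 and 65.3 CPM in the knockout and 58.7, 55.1 and 54.1 CPM in wild-type, a log2 fold change of 0.19 (adjusted p = 0.0137). That call was lost without KO replicate 2 (adjusted p = 0.0594), without KO replicate 3 (0.0619) or without WT replicate 2 (0.0528). CD44, the classical target whose exons ESRP1 regulates, was too low to test, at 0.0874 to 0.136 CPM in the knockout and 0.18 to 0.341 CPM in wild-type. Counts per gene hold no information on which exons these transcripts contain.

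Other splicing regulators, not limited to those of epithelial exons, moved in both directions. Of 23 listed, 21 were tested, 4 were higher and 7 lower, with a median log2 fold change of -0.05. These are 19.0% and 33.3% of those tested, beside 14.0% higher and 17.7% lower over all tested genes. RBFOX2, which acts on many mesenchymal and neuronal exons, rose to 289 ± 8.62 CPM in the knockout, against 223 ± 3.20 CPM in wild-type (SD, n = 3 each, adjusted p = 3.09e-05), RBFOX3 rose by 1.02 and QKI by 0.29 on the log2 scale. CELF2 fell to 23.9 ± 1.01 CPM, against 52.2 ± 3.25 CPM in wild-type (adjusted p = 3.78e-07), and MBNL1 and the neuronal regulator NOVA2 had log2 fold changes of -0.57 and -0.95. RBM47, an epithelial splicing and editing cofactor named here after its values were seen, had a log2 fold change of -1.05 (SE 0.12). PTBP1 and HNRNPM, which are abundant in most cells, were not called (log2 fold changes 0.12 and 0.01).

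Of 14 listed matriptase substrates and partners, 7 were tested, 3 fell and 0 rose, with a median of -0.33 (0 were higher also at an unadjusted p under 0.05, and with DESeq2 or limma-voom). The 3 and 0 are 42.9% and 0% of those tested, beside 17.7% lower and 14.0% higher over all tested genes. F2RL1, the protease-activated receptor cleaved downstream of matriptase, fell to 16.7 ± 1.16 CPM in the knockout, against 26.1 ± 1.74 CPM in wild-type (SD, n = 3 each, adjusted p = 8.75e-05). MET, the receptor of hepatocyte growth factor, fell to 46.6 ± 1.95 CPM, against 58.7 ± 5.71 CPM in wild-type. EPCAM, an adhesion protein cleaved by matriptase and the remaining fall of the 3, was named after its values were seen, with 0.204, 0.217 and 0.485 CPM in the knockout and 1.11, 0.693 and 0.944 CPM in wild-type. PRSS8, the prostasin protease that works with matriptase, HGF and the sodium channel subunits SCNN1A, SCNN1B and SCNN1G were under 0.2 CPM in every library. Of 16 other membrane-anchored serine proteases, 4 were tested and none was called (0 in either direction also at an unadjusted p under 0.05, and with DESeq2 or limma-voom), and the whole list summed to 4.03 to 4.16 CPM in the knockout and 3.75 to 3.96 CPM in wild-type. Over all tested genes 31.8% were called.

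Of 17 other Kunitz-domain and serine protease inhibitors, 10 were tested, 4 fell and 2 rose, with a median log2 fold change of -0.16, and the SPINT relatives SPINT3 and SPINT4 were at 0 in all libraries. The 4 and 2 are 40% and 20% of those tested, beside 17.7% lower and 14.0% higher over all tested genes. The amyloid precursor proteins APLP2 and APP, some of whose isoforms carry a Kunitz domain, fell to 453.5 ± 2.69 and 419 ± 7.93 CPM in the knockout, against 563 ± 7.25 and 502 ± 9.70 CPM in wild-type (SD, n = 3 each, adjusted p of 4.99e-05 and 0.000291). TFPI2, an inhibitor of plasmin and other proteases, had a log2 fold change of -1.68. TFPI, which inhibits the tissue factor pathway, was also lower (-0.58), while COL6A3 and SPINK5 were higher by 1.64 and 1.47 from levels under 1 CPM, and these 3 were named after their values were seen.

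Relatives of the transcription factors were tested where they were expressed. Of 5 grainyhead and Ovo relatives, 4 were tested, 2 rose and 1 fell, with a median log2 fold change of -0.12. These are 50% and 25% of those tested, beside 14.0% higher and 17.7% lower over all tested genes. The ubiquitous UBP1 rose to 259 ± 5.80 CPM in the knockout, against 198 ± 6.82 CPM in wild-type (SD, n = 3 each, adjusted p = 3.73e-05), TFCP2 rose by 0.26 on the log2 scale, and TFCP2L1 fell to 5.71 ± 0.706 CPM, against 8.12 ± 0.562 CPM in wild-type (adjusted p = 0.00418). GRHL3 lay at 0.242 to 0.466 CPM in the knockout and 0.434 to 0.642 CPM in wild-type and was not called. Of 12 other epithelial transcription factors, 6 were tested, 2 (33.3%) fell and 1 (16.7%) rose, with a median of 0.06. FOXA1, a pioneer factor of endodermal and mammary epithelia, fell to 4.78 ± 0.135 CPM, against 12.2 ± 0.0493 CPM in wild-type (adjusted p = 4.82e-07), and GATA3 had a log2 fold change of -1.20.

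Among junction and identity genes of epithelia, 9 fell and 2 rose. Of 28 listed, 16 were tested and 5 of these were not called, with a median log2 fold change of -0.56. The 9 and 2 are 56.25% and 12.5% of those tested, beside 17.7% lower and 14.0% higher over all tested genes. KRT18, a keratin of simple epithelia, fell to 13.8 ± 0.539 CPM in the knockout, against 30.7 ± 2.62 CPM in wild-type (SD, n = 3 each, adjusted p = 1.36e-06). OCLN, the tight junction protein occludin, fell to 14.9 ± 0.657 CPM, against 21.8 ± 0.535 CPM in wild-type, and MAL2, which acts in apical transport, fell to 0.312 ± 0.176 CPM, against 2.44 ± 0.169 CPM in wild-type. The desmosome genes DSP and JUP went the other way, each higher by 0.29 on the log2 scale, but the call for JUP was lost without KO replicate 1 (adjusted p = 0.0604) or without KO replicate 3 (0.0573). Other falls, named after their values were seen, were CDH1 (-0.57), KRT8 (-0.91), MARVELD2 (-2.04), MARVELD3 (-1.54) and CDH3 (-1.02), given as log2 fold changes. CDH1 lies 0.548 Mb from ESRP2 and was also counted above among the neighbours of ESRP2 called lower. The call for CDH3 was lost without KO replicate 1 (log2 fold change -0.72, adjusted p = 0.0795). The remaining fall of the 9 was EPCAM (-1.61), which was also counted among the falls of the matriptase list. The list summed to 461 to 475 CPM in the knockout and 437 to 443 CPM in wild-type, of which DSP contributed 320.3 CPM in the knockout and 262 CPM in wild-type.

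**Figure D4:**
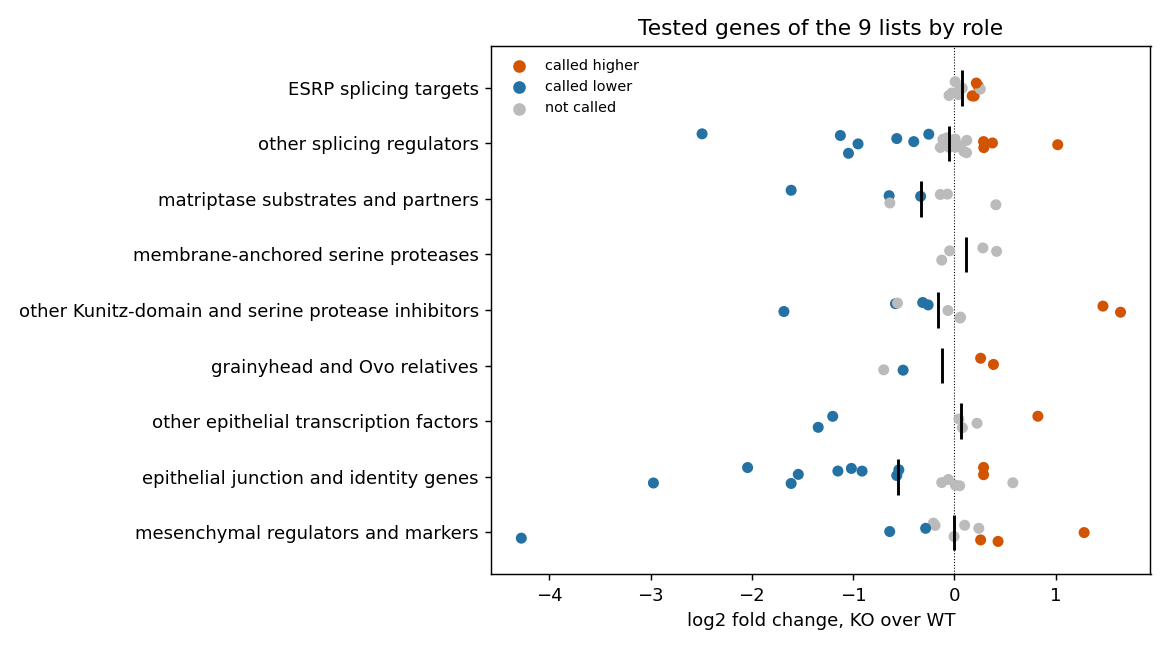
Log2 fold change, KO over WT (horizontal axis), of the tested genes in each of the 9 lists by role, coloured by call, with a bar at each list's median. The epithelial junction list has its median at -0.56 and the list of ESRP splicing targets at 0.08, with all 11 of its tested genes between -0.05 and 0.26.

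Mesenchymal regulators and markers, among them ZEB1, which OVOL factors restrain, were measured in all 6 libraries but showed no common direction. Of 11 tested, 3 rose and 3 fell, with a median of 0.00. Each is 27.3% of those tested, beside 14.0% higher and 17.7% lower over all tested genes. SNAI2, a repressor of junction genes, rose to 59.99 ± 0.925 CPM in the knockout, against 24.7 ± 2.54 CPM in wild-type (SD, n = 3 each, adjusted p = 3.55e-07), ZEB2 rose by 0.26 and fibronectin, FN1, by 0.43 on the log2 scale. VIM fell to 117 ± 1.5 CPM, against 183 ± 7.56 CPM in wild-type, and CDH2 and PRRX1 had log2 fold changes of -0.28 and -4.28. ZEB1 measured 45.4, 44.7 and 44.8 CPM in the knockout and 44.7, 40.5 and 40.5 CPM in wild-type and was not called.

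Markers that could tell a shift of lineage in the line moved singly. Of 6 kidney lineage genes, 5 were tested, with a median log2 fold change of -0.13. Of these, 1 (20%) was called higher and 2 (40%) lower, beside 14.0% higher and 17.7% lower over all tested genes. The list summed to 68.0 to 74.3 CPM in the knockout and 74.4 to 77.2 CPM in wild-type. PAX2 rose to 10.8 ± 0.0636 CPM in the knockout, against 4.52 ± 0.666 CPM in wild-type, while EYA1 fell to 3.71 ± 0.218 CPM, against 13.5 ± 1.6 CPM in wild-type, and WT1 fell to 4.06 ± 0.065 CPM, against 7.93 ± 0.0416 CPM in wild-type (SD, n = 3 each, adjusted p between 4.63e-07 and 1.11e-05). Of 6 neuronal genes, STMN2 was higher (4.45) and NEFM lower (-9.40 on the log2 scale), and 4 were not called. These are 16.7% higher and 16.7% lower, near the shares of all tested genes. The neuronal list had a median of -0.02 and sums of 141.9 to 144.2 CPM in the knockout and 162 to 167.6 CPM in wild-type. The size of the NEFM value rests on 1, 0 and 4 counts in the knockout libraries, and it was -10.97 without KO replicate 3 and -8.81 without KO replicate 2. Of 5 keratinocyte genes only KRT10 was tested, and it rose by 0.28 on the log2 scale, while KRT1 and KRT6A were at 0 and the list summed to 19.7 to 20.4 CPM in the knockout and 16.0 to 17.0 CPM in wild-type. Of 6 blood and 6 fibroblast genes, 2 each were tested, with medians of 0.16 and -0.20, and 0 were called by edgeR, beside 31.8% of all tested genes (0 also at an unadjusted p under 0.05, and with DESeq2 or limma-voom). The part of these markers in the fall of ESRP2, SPINT2 and GRHL1 was not tested.

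Over the 162 listed genes outside the set, counted once each, 105 were tested, 21 were higher and 31 lower. The 31 correspond to 29.5% of those tested, beside 17.7% of all tested genes, and the 21 to 20% beside 14.0%. The lists were chosen with earlier results of these data known, so these shares are a description without a test.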

How the data were processed

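Poly(A)-selected RNA of 3 SMARCA3 KO and 3 wild-type HEK293T libraries was made into stranded paired-read libraries, per the labels' protocols. The authors deposited raw counts, whole-number reads per gene symbol for each library. The submitters' processing notes list hg38, STAR 2.4, HTSeq 0.9.1, Trim Galore, Picard and DESeq2 without their roles. The sources used here give neither annotation release nor strand setting.

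Chi-square over degrees of freedom between libraries of 1 group was 3.30 to 13.6, above sampling noise, so none of the 6 was merged. The test was that of edgeR 4.0.16 (R 4.3.3) on the deposited counts: filterByExpr (18061 genes kept), TMM factors of 0.997 to 1.005, quasi-likelihood F test of SMARCA3 KO over wild-type, no covariate, two-sided p adjusted by Benjamini-Hochberg, threshold 0.05. The SE is the log2 fold change divided by the square root of F. CPM are per 1000000 TMM-scaled counts of tested genes. A floor of 3 counts is 0.0288 CPM over the knockout group and 0.0253 CPM over the wild-type group. Intervals (95%, exact) and floors cover counting error only: PCR copies were not marked by molecular identifiers.

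Level per length used the union of exons in the GENCODE annotation of the same build, which matched 29537 of 56832 symbols and 77.8% of tested genes. Neighbours were the 20 positioned, tested genes on each side with a mean of at least 2 CPM. The set, the 14 gene lists (9 by role, 5 of cell type markers, some genes on 2 lists) and the tests were chosen with earlier results of these data known. Named were all 9 genes, HLTF, up to 3 called genes per list and direction with the smallest p and at least 1 CPM in the higher group, and the 3 nearest profiles of ESRP2 and SPINT2; every other gene named was chosen after its values were seen. A few listed genes are not reported here by name. Alternatives were RLE factors, library size only, no filter, at least 1 CPM in 3 libraries, DESeq2 1.42.0, limma-voom (limma 3.58.1), robust dispersion, a block for the replicate number, leaving out each library, thinning to the smallest total, removal of the neighbour median and another gene length. The edgeR procedure was tested on simulated counts of 18066 genes, of which 100 were changed by 1 log2 unit and 100 by 2 log2 units. It recovered 100% of each, with 4 false calls. Smaller changes, such as those of GRHL1 (-0.51) and FGFR2 (0.19), were not simulated, so their recovery was not tested. Far fewer genes were changed than the 31.8% called here, so the 4 false calls need not hold for these libraries.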

Additional observations from a re-analysis of the deposited data

How the results depend on the processing

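Over 15 refits, ESRP2 kept a log2 fold change between -4.50 and -4.31 and SPINT2 between -4.08 and -3.87, and with the neighbour median removed they were -4.37 and -4.01. GRHL1 ranged from -0.56 to -0.45 with an adjusted p of 5.96e-06 to 0.0129 and was called in every refit. The count of genes called lower ran from 2309 to 3275 and of genes called higher from 1850 to 2881 as libraries were left out in turn. Listed genes called lower ran from 27 to 34 and higher from 18 to 25 over the refits. The numbers of the replicates did not pair the samples: same-numbered libraries deviated from their group means with correlations of -0.23, -0.01 and -0.05. With the replicate block 1791 genes were higher and 2441 lower, GRHL1 had an adjusted p of 0.0129, and the calls for EXOC7 (0.052), JUP (0.0609) and FGFR2 (0.0573) were lost. With DESeq2 the call for CDH3 was lost (adjusted p = 0.0731). No refit reversed the direction of a gene whose fold change was followed over the refits. HNRNPM, PTBP1, ZEB1 and GRHL3 were not among the genes followed. With the longest transcript as length the ST14 level relative to its inhibitors was 0.125 in the knockout and 0.00776 in wild-type, and without 1 library at a time it ranged from 0.10 to 0.181 in the knockout and from 0.00717 to 0.0106 in wild-type. Depth limits the 6 sparse genes: the upper limits of the KO over WT count ratio were 1.56 for ESRP1, 1.67 for OVOL2, 1.71 for OVOL1, 2.88 for GRHL2, 3.11 for ST14 and 9.28 for SPINT1, and the lower limits ran from 0.00413 for ESRP1 to 0.507 for SPINT1, while the number of counts per gene says nothing of exon use.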
